A study of Mus musculus with 15 samples.

Results

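N2a cells, a mouse neuroblastoma line, had their own Opa1 targeted by siRNA at 50 nM and received at the same time a plasmid encoding either wild-type OPA1 or OPA1 with valine 560 replaced by phenylalanine (V560F). The comparison of these plasmids was taken from the sample labels and holds 6 of the 15 libraries of the series, 3 for V560F and 3 for wild-type OPA1, all collected on day 3. By their labels both groups carry the siRNA and differ in the plasmid. Whether the endogenous transcript was lost to the same degree in both was not measured apart from any RNA of the plasmid. Libraries from the second mutant, V465F (3 libraries), were used for a direct test between mutants, and libraries from control siRNA with control plasmid and from Opa1 siRNA with control plasmid were used for the shared estimate of spread. The labels name co-transfection with a lipid reagent, give neither the species of the insert nor the transfected share of cells, and do not say whether replicates were separate cultures. Where they were not, the p-values measure technical spread alone.

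OPA1 is a dynamin-like GTPase anchored in the inner mitochondrial membrane. The proteases OMA1 and YME1L1 cut its long forms into short forms. Long and short forms together drive inner membrane fusion and hold cristae junctions narrow, and narrow cristae retain cytochrome c. Mutations in the gene cause dominant optic atrophy, a loss of retinal ganglion cells, and disturbed inner membranes are known to signal to the nucleus through OMA1, DELE1 and the integrated stress response.

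Counts summed to 20118319 to 22215748 per library for V560F and to 23916352 to 27809960 for wild-type OPA1. Two-sided exact permutation of 3 against 3 cannot go below p = 0.1, which each library measure below reached. The level of longer genes was lower in V560F libraries, with slopes on the log2 scale per 10-fold length of -0.31, -0.82 and -0.32 relative to the mean of all libraries, against 0.16, 0.22 and -0.07 in wild-type libraries. The 50 most abundant genes took 23.2 ± 0.713% of counts in V560F and 19.6 ± 0.596% in wild type (SD, n = 3). V560F replicate 2 and wild-type replicate 3 stood apart from their groups. Beside the medians of gene groups stand those after a correction fitted per library on gene length and GC content (called corrected below). Of 10 sympathetic neuroblast markers, 9 reached 1 FPKM in both groups, with a summed level of 969 to 1040 FPKM in wild type and 1060 to 1170 FPKM in V560F. Myeloid and epithelial markers stayed under 1 FPKM, fibroblast markers were represented by 1 gene of 7 at 171 to 189 FPKM summed over both groups, and glial markers summed to 5.17 to 5.79 FPKM in wild type and 2.3 to 2.93 FPKM in V560F, whose part in the results was not tested.

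At an edgeR adjusted p under 0.05, 3204 of 13074 genes tested (24.5%) were higher in V560F and 3260 (24.9%) were lower, 6464 in all (49.4%). CPM did not overlap between the groups for 52.1% of genes. Changes were mostly modest, since 124 genes (0.948%) were higher and 435 (3.33%) lower by at least 2-fold. After the length and GC correction the calls were 3810 (29.1%) higher and 2161 (16.5%) lower. Scaling by library totals alone moved the median log2 fold change of all genes from -0.025 to -0.285 and the calls to 1209 higher and 5939 lower. Directions below are therefore relative to the median gene under TMM scaling, and the sentences on a list say where its median changed sign under totals alone. Of these calls, 5539 were called in the same direction without the 2 libraries that stood apart, and 4441 after the correction.

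**Figure D1:**
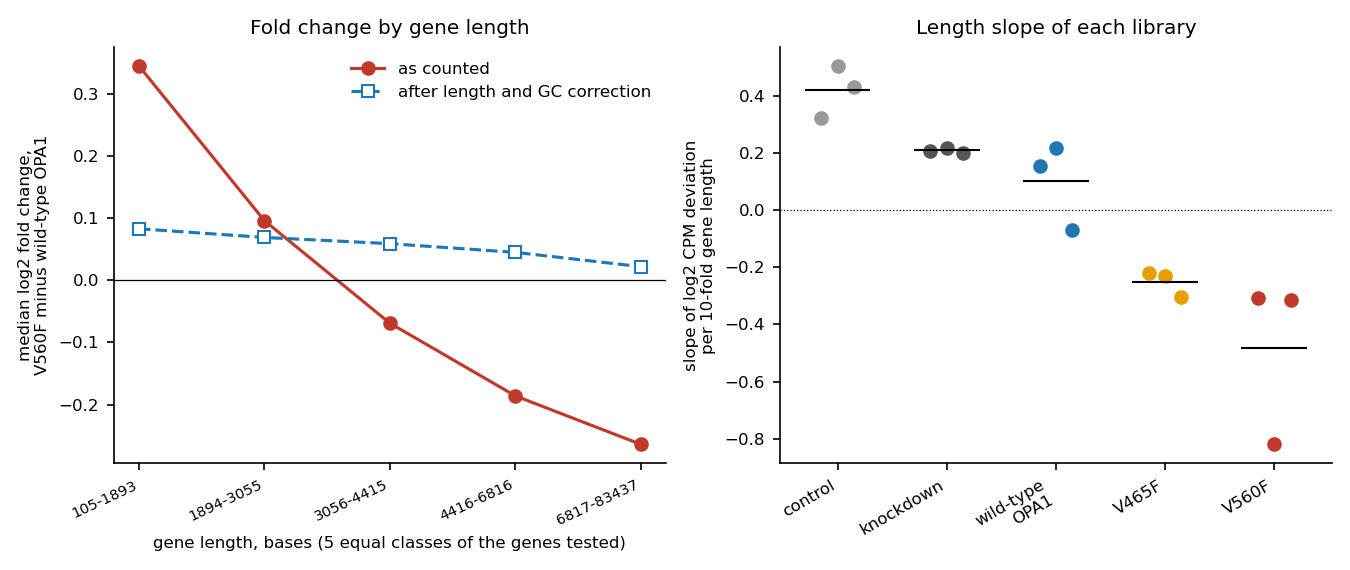
Left, median log2 fold change of V560F minus wild-type OPA1 in 5 equal classes of the tested genes by gene length, as counted (red) and after correction (blue). Right, slope of each library's log2 CPM deviation per 10-fold gene length (points, 3 libraries a group; bar, mean). As counted, the medians run from 0.345 in the shortest class to -0.264 in the longest, and after correction from 0.083 to 0.022.

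Opa1 was read first. It stood at 29.5, 33.9 and 30.7 CPM in the wild-type libraries and at 35.8, 27.4 and 33.0 CPM in the V560F libraries, so the groups overlapped. The level was 95.9 ± 4.94 CPM in control libraries and 36.8 ± 2.52 CPM with the siRNA and control plasmid (SD, n = 3). The V560F difference was 0.03 ± 0.0879 on the log2 scale (standard error, edgeR adjusted p = 0.818). After correction it was 0.25 (edgeR adjusted p = 0.00465), and its sign turned under 4 alternatives given in the closing section. Whether RNA from the plasmid was counted under mouse Opa1 is not known, so these counts do not compare the doses of the inserts.

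Immediate early genes were higher in V560F. These genes are transcribed within minutes of a stimulus without new protein synthesis. Of 7 AP-1 genes tested, 5 rose and none fell (median log2 fold change 0.815, 0.822 corrected), beside 24.5% and 24.9% of all genes. Fos, the inducible partner of JUN, stood at 9.13, 9.82 and 9.06 CPM in wild type and at 26.4, 29.9 and 24.7 CPM in V560F. No library of one group reached the other, and the log2 fold change was 1.53 ± 0.134 (edgeR adjusted p = 4.12e-08). Junb read 29.0, 26.1 and 28.5 CPM in wild type and 59.1, 73.1 and 51.4 CPM in V560F, a log2 rise of 1.14 ± 0.114 (edgeR adjusted p = 1.61e-07), with Prdx2 on the opposite strand and the strand setting not stated. Fosb (0.81 ± 0.134) and Atf3 (0.93 ± 0.163), which encode a FOS relative and a stress-induced repressor, rose as well. Among 25 further immediate early genes, 17 rose and 1 fell (median 0.473, 0.536 corrected). Egr1, a zinc finger factor induced through ERK, went from 71.1, 72.6 and 75.9 CPM to 173, 161 and 155 CPM, a log2 change of 1.15 ± 0.08 (edgeR adjusted p = 3.47e-09). Gadd45b, a stress sensor that activates p38 and JNK signalling, rose by 1.13 ± 0.107 and Ier2 by 0.79 ± 0.0991 on the log2 scale.

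Of 15 feedback inhibitors of ERK signalling, 5 fell and 2 rose (33.3% lower beside 24.9% of all genes), and after correction 3 fell and 2 rose (median -0.073, -0.016 corrected). Spred2, which encodes a membrane inhibitor of RAS to RAF signalling, read 122, 119 and 108 CPM in wild type and 57.7, 50.1 and 58.8 CPM in V560F. These levels did not overlap, and the log2 change was -1.07 ± 0.0757 (edgeR adjusted p = 3.58e-09), or -0.72 corrected. Its relative Spred1 changed by -0.74 ± 0.0743 and Spry2, a receptor tyrosine kinase feedback inhibitor, by -0.60 ± 0.0776. The dual specificity phosphatase Dusp6 of the same list, which dephosphorylates ERK, had a log2 difference of 0.05.

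Of 11 NF-kB subunit and inhibitor genes, 4 rose and 3 fell (36.4% and 27.3%, beside 24.5% and 24.9% of all genes). After correction 6 rose and 2 fell (median 0.010, 0.239 corrected, -0.257 under totals alone). Nfkbia, the inhibitor that NF-kB induces against itself, went from 101, 91.7 and 112 CPM to 221, 278 and 220 CPM, which is 1.24 ± 0.0831 on the log2 scale (edgeR adjusted p = 3.44e-09). Nfkbiz, a nuclear co-regulator, rose by 0.96 ± 0.081, and Tnfaip3, a ubiquitin-editing brake on the pathway, by 0.53 ± 0.145. Another inhibitor gene, Nfkbie, moved furthest in the list, from 1.42, 1.68 and 1.57 CPM to 0.330, 0.440 and 0.851 CPM (-1.53 ± 0.36, edgeR adjusted p = 0.0013). Among subunit genes Rel rose by 0.35 ± 0.0955, but without V560F replicate 3 the difference was 0.21 (edgeR adjusted p = 0.0579). Rela (-0.48 ± 0.128) and Nfkb1 (-0.50 ± 0.14) fell, the latter not after correction (edgeR adjusted p = 0.0661). Of 11 target genes tested, 4 rose and 3 fell, again 36.4% and 27.3% (median -0.394, -0.403 corrected). The chemokine gene Cxcl1 went from 2.52, 2.62 and 1.68 CPM to 6.77, 7.37 and 6.64 CPM (log2 fold change 1.60 ± 0.239), and Irf1, a transcription factor of inflammatory genes, rose by 0.88 ± 0.0746.

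**Figure D2:**
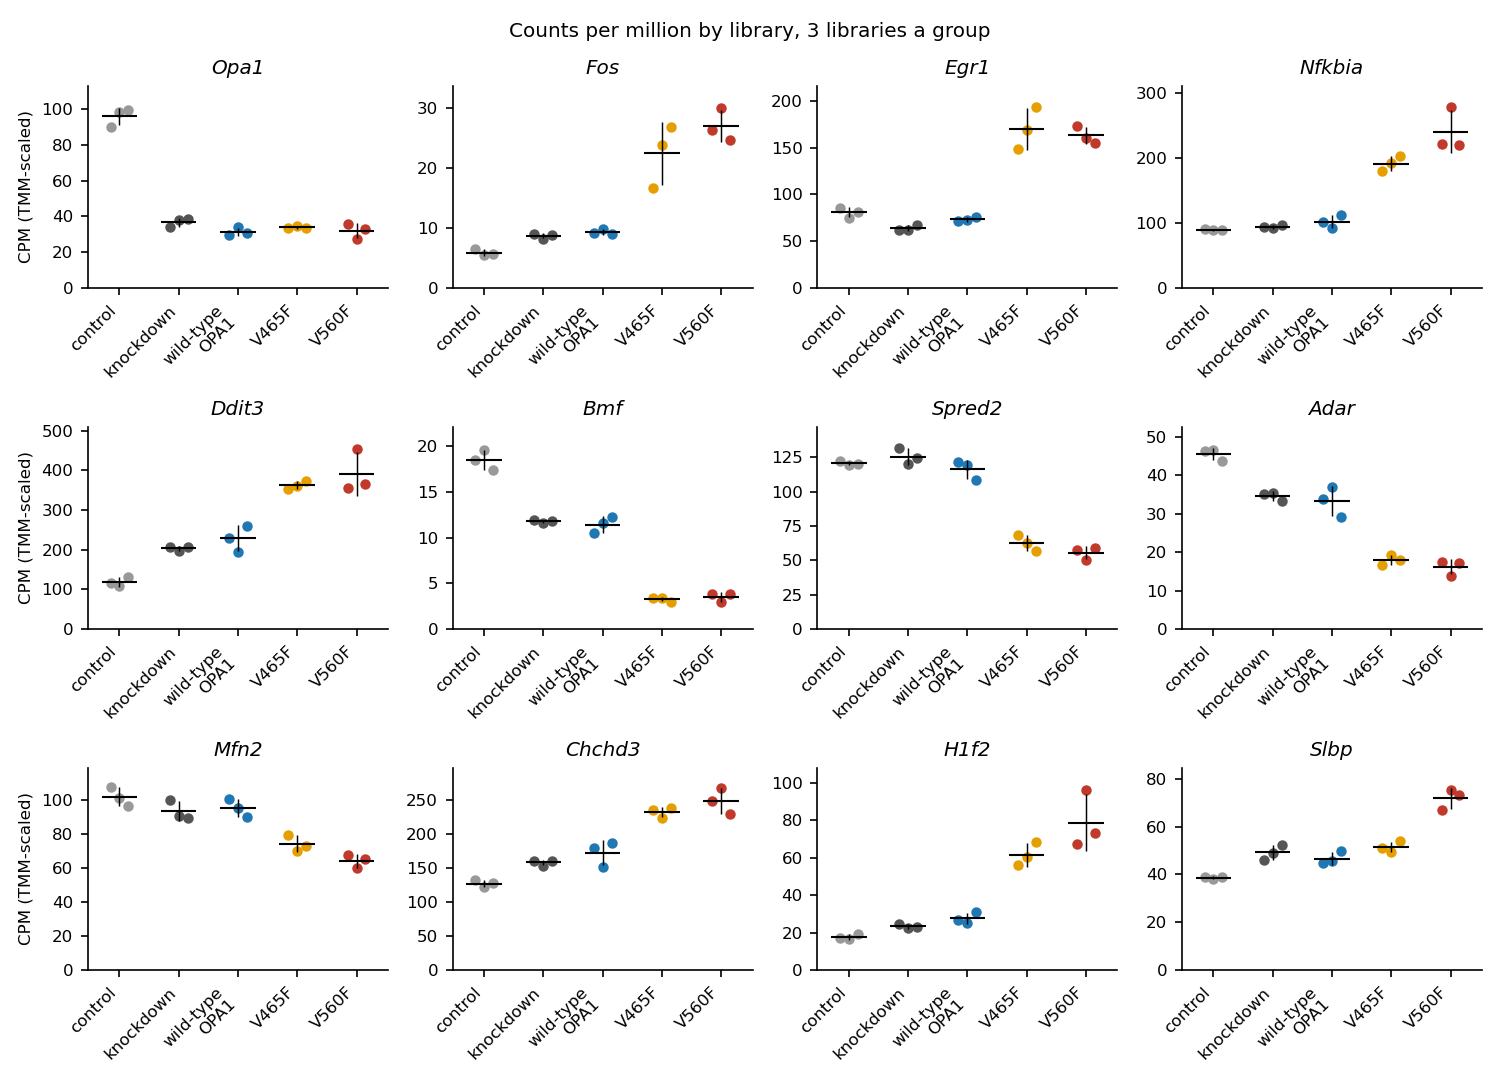
CPM scaled by TMM in each library (points) with the group mean and SD (bars, 3 libraries a group) for 12 genes in all 5 groups. For Fos, Egr1, Nfkbia, Bmf, Spred2 and Adar the V560F points do not overlap the wild-type points, and for Opa1 they do.

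Several genes that sense viral nucleic acid were lower. Of 11 tested, 6 fell and none rose, beside 24.9% and 24.5% of all genes (median -0.373, -0.383 corrected). After correction 6 fell and 1 rose, the rise being Mavs at 0.38 (edgeR adjusted p = 0.00926). Adar, which edits double-stranded RNA and so shields self RNA from sensors, stood at 33.8, 37.1 and 29.2 CPM in wild type and 17.4, 13.9 and 17.2 CPM in V560F. The log2 change was -1.04 ± 0.098 (edgeR adjusted p = 8.65e-08), Chrnb2 overlapping it on the other strand. Eif2ak2, which encodes the RNA-activated kinase PKR, changed by -0.76 ± 0.0962, and Ddx58, which encodes the sensor RIG-I, by -0.55 ± 0.102. Ifih1, the sensor MDA5, changed by -1.83 ± 0.508 at levels under 2 CPM. Interferon-stimulated genes were mixed, with 10 of 27 lower and 6 higher, or 6 and 5 after correction (median -0.234, -0.161 corrected). Rsad2 (-0.84 ± 0.135) and Oasl2 (-0.92 ± 0.211), both antiviral effectors, were among the falls, and the class I antigen genes H2-K1 (0.56 ± 0.0822) and B2m (0.63 ± 0.0788, 0.19 corrected) among the rises.

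Id1 and Id3, transcriptional inhibitors induced by BMP signalling, rose while several of its receptors fell. Id1 went from 14.8, 17.2 and 17.7 CPM to 32.6, 42.8 and 31.3 CPM, a log2 fold change of 1.10 ± 0.118, and Id3 rose by 1.14 ± 0.18. Over the whole list of 21 genes, 4 rose and 12 fell (median -0.362, -0.101 corrected). Bmpr1a (-0.53 ± 0.0728), Bmpr2 (-0.67 ± 0.1) and Acvr2a (-0.78 ± 0.104), all receptor subunits, and Smad1 (-0.70 ± 0.0837), a signal carrier, were lower.

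In the mitochondrial fusion and fission machinery, 7 of 18 genes fell and 3 rose (38.9% and 16.7%, beside 24.9% and 24.5% of all genes). After correction 4 fell and 4 rose (median -0.029, 0.045 corrected). Mfn2, the outer membrane mitofusin, read 101, 95.6 and 90.2 CPM in wild type and 68.0, 60.0 and 65.6 CPM in V560F. Its log2 change was -0.57 ± 0.0726 (edgeR adjusted p = 2.53e-06), and -0.29 after correction (edgeR adjusted p = 0.000286). Slc25a46, an outer membrane protein that links fusion to lipid transfer, changed by -0.62 ± 0.103, and Mief1, a receptor for the fission GTPase DRP1, by -0.52 ± 0.0828. The fission adaptor Fis1 rose by 0.43 ± 0.0778, but not after correction (edgeR adjusted p = 0.0604). Marchf5, a ubiquitin ligase of the outer membrane, rose by 0.35 ± 0.0606 and by 0.58 corrected. Neither Mfn1 (0.09) nor Dnm1l (-0.09), which encodes DRP1, passed the test as counted, and both were chosen for naming after their values were seen. After correction Mfn1 was called higher, by 0.22 (edgeR adjusted p = 0.00878).

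As counted, the proteases that cut OPA1 were not called. Yme1l1 stood at 158 ± 1.39 CPM in wild type and 163 ± 4.43 CPM in V560F (log2 difference 0.05 ± 0.0552, edgeR adjusted p = 0.476), and it was called higher after correction, by 0.22 (edgeR adjusted p = 0.00162). Oma1, the stress-activated protease, was near the limit of the counts, at 1.49 ± 0.4 and 1.20 ± 0.319 CPM (log2 difference -0.31 ± 0.288, edgeR adjusted p = 0.399). In the list of 10 genes that joins these proteases with other inner membrane proteases and prohibitin scaffold genes, 6 rose and 1 fell, or 5 and none after correction (median 0.314, 0.187 corrected). Prohibitin Phb2 rose by 0.48 ± 0.0794 and Stoml2, which organises cardiolipin-rich membrane, by 0.53 ± 0.0791. Spg7, a subunit of the matrix m-AAA protease, rose by 0.34 ± 0.0647, while its partner Afg3l2 changed by -0.27 ± 0.0676, not called after correction (edgeR adjusted p = 0.308).

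MICOS is the complex that forms cristae junctions together with OPA1. The list of 14 MICOS and other cristae-shaping genes reaches beyond the complex itself. In it 8 genes rose and 1 fell, or 5 and 1 after correction (median 0.361, 0.043 corrected). Chchd3, the MIC19 subunit of MICOS, went from 180, 152 and 187 CPM to 249, 268 and 231 CPM. Its log2 rise was 0.53 ± 0.0728 (edgeR adjusted p = 5.17e-06), and 0.62 corrected. Chchd6 rose by 0.61 ± 0.0987 and Micos10 by 0.43 ± 0.0834. The core subunit Immt, mitofilin, had 222 ± 4.79 and 237 ± 17.0 CPM and was not called (log2 difference 0.10 ± 0.0612, edgeR adjusted p = 0.205). After correction it was called higher, by 0.29 (edgeR adjusted p = 8.2e-05). Dnajc11, a chaperone-like protein bound to MICOS, stood at 35.2, 33.4 and 32.4 CPM in wild type and 15.2, 18.0 and 15.1 CPM in V560F, the one fall of the list, at -1.06 ± 0.0877 (edgeR adjusted p = 2.26e-08).

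**Figure D3:**
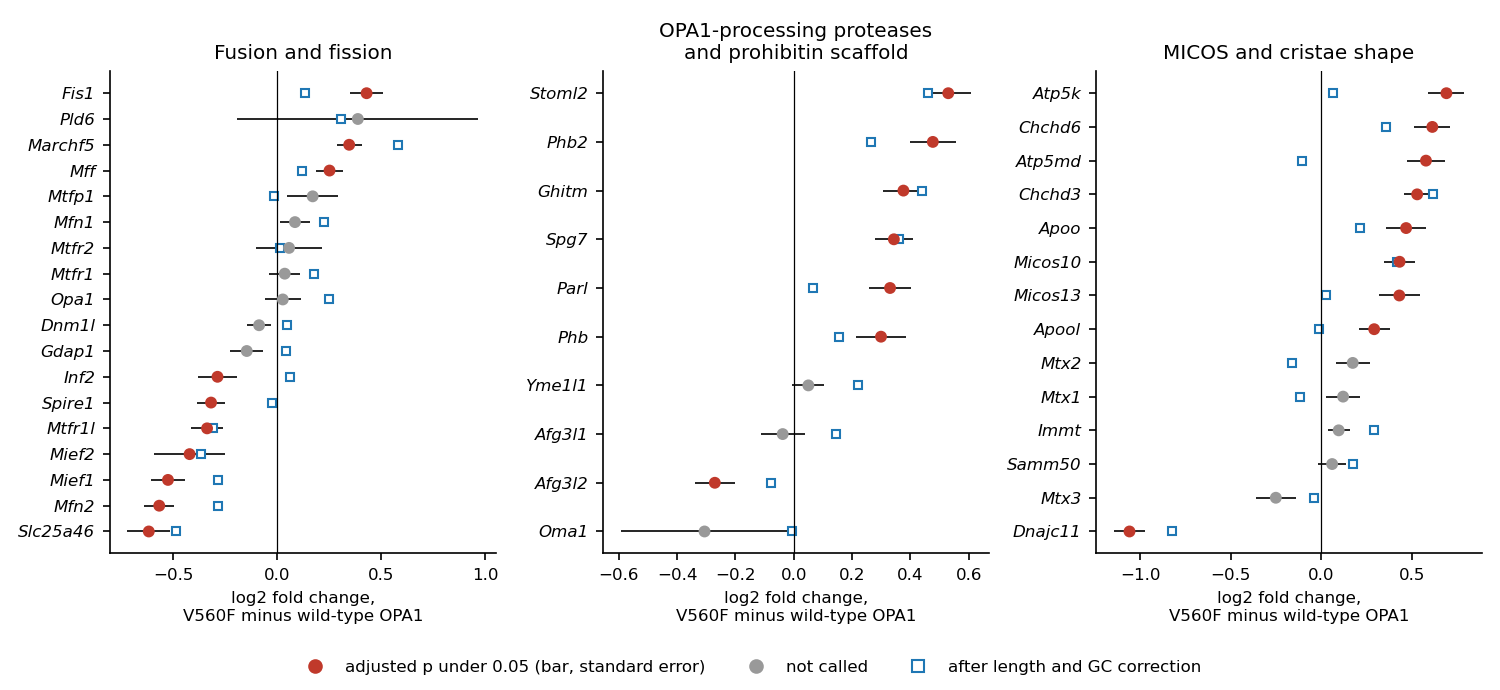
Log2 fold change of V560F minus wild-type OPA1 for each tested gene of 3 lists (circles, red where the edgeR adjusted p was under 0.05; bars, standard error) and after the length and GC correction (blue squares). Dnajc11 lies at -1.06 while Chchd3 and Chchd6 lie at 0.53 and 0.61.

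Other inherited optic atrophy genes gave 4 rises and 5 falls among 17 (23.5% and 29.4%, near the 24.5% and 24.9% of all genes). Their median was 0.001, or -0.052 corrected and -0.256 under totals alone. Opa3, an outer membrane protein gene, changed by -0.62 ± 0.152. Nuclear respiratory chain genes were higher almost throughout, with 35 of 36 complex I genes (median 0.519, 0.146 corrected) and 37 of 39 genes of complexes II to V (median 0.603, 0.176 corrected). These genes are short, with a median length of 876 and 1001 bases, and 16 and 23 of them were called higher after correction. Of 13 genes of the mitochondrial genome, 3 rose and 1 fell as counted, and 2 rose and 9 fell after correction. Their median of 0.057 turned to -0.323 with correction and to -0.206 under totals alone. Among them COX1, a core subunit of complex IV, rose by 0.52 ± 0.0687 and by 0.28 corrected. Voltage-dependent channel and nucleotide carrier genes rose, Vdac1 by 0.59 ± 0.0724, Vdac2 by 0.52 ± 0.0716 and Slc25a5 by 0.66 ± 0.08. Import genes gave 21 rises and 2 falls among 33 (median 0.329, 0.177 corrected). Tomm20, the import receptor, rose by 0.62 ± 0.0743 and Tomm70a, the receptor for carrier proteins, changed by -0.53 ± 0.0679. Genes that move mitochondria along microtubules gave 9 falls and no rise among 13 (median -0.358, -0.039 corrected), the adaptor Trak2 (-0.62 ± 0.113) and the kinesin Kif5a (-0.57 ± 0.0786) among them. Only 3 of the 13 were called lower after correction. Twnk, the mitochondrial DNA helicase, changed by -0.98 ± 0.127, with Mrpl43 on the opposite strand.

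The integrated stress response converges on ATF4, which binds composite C/EBP-ATF elements in its target genes. Of 31 of its genes tested, 20 rose and 4 fell (median 0.365, 0.364 corrected). The core TGATGNAA of that element, searched on both strands, was found in 3.97% of 32851 mouse promoters in RefSeq (250 bases before to 50 after the start). It was found in 8 of the 27 stress response genes with a promoter there. The first share counts promoters and the second counts genes with the element in any of their promoters. The genes were also listed as stress response genes beforehand, so the shares are no test of enrichment. Of those 8 genes, 5 rose as counted. After correction 1 of the 5, Nupr1, was called lower (0.29 as counted, -0.18 corrected) and Pycr1 was called higher (0.18 and 0.26), both named after their values were seen. The promoters of 3 of them are shown because their levels went in different directions (GRCm38.p6, 5′ to 3′ on the gene's strand, element in capitals).
Atf3, chr1:191183284-191183583, minus strand: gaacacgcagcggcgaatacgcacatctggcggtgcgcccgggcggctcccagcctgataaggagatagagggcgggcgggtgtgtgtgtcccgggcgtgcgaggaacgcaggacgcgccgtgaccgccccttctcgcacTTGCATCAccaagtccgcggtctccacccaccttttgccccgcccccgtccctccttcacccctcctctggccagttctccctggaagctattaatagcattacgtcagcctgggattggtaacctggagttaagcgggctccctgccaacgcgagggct
Chac1, chr2:119350992-119351291, plus strand: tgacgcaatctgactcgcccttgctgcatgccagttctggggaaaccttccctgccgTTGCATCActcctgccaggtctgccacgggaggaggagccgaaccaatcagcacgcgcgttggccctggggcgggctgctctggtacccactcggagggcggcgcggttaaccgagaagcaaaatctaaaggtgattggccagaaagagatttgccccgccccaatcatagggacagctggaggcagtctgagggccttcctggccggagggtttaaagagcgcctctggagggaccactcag
Slc7a11, chr3:50443564-50443863, minus strand: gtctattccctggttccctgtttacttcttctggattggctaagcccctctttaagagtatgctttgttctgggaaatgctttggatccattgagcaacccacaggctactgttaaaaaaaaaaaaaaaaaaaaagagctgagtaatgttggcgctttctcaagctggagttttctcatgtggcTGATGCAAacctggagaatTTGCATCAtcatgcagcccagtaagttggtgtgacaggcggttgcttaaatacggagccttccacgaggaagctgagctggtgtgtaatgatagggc

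Atf3, with 1 element on the opposite strand at position -110 from the start, stood at 7.30, 8.95 and 12.5 CPM in wild type and 16.3, 20.8 and 17.8 CPM in V560F. Chac1, a glutathione-degrading enzyme gene with 1 element, went from 24.5, 26.3 and 27.9 CPM to 40.7, 47.1 and 35.6 CPM (log2 fold change 0.65 ± 0.0986). Slc7a11, the cystine importer gene with 2 elements, went down instead, from 13.3, 13.1 and 10.5 CPM to 5.72, 4.40 and 9.25 CPM, without overlap. Its log2 change was -0.93 ± 0.178 (edgeR adjusted p = 0.000174). Chac1 was chosen for its promoter after its value was seen.

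Of the response genes without the element in this window, Ddit3, which encodes the death-promoting factor CHOP, stood at 230, 195 and 260 CPM in wild type and 354, 454 and 365 CPM in V560F, a log2 rise of 0.78 ± 0.0958 (edgeR adjusted p = 1.77e-06). Ppp1r15a, which directs the phosphatase that reverses eIF2alpha phosphorylation, rose by 0.73 ± 0.0895, and Cebpb, a partner of ATF4, by 0.67 ± 0.0901. Of the 4 eIF2alpha kinase genes, 3 were lower. Eif2ak3 (PERK) changed by -0.65 ± 0.0768 and Eif2ak1 (HRI, the kinase that DELE1 activates) by -0.48 ± 0.112, while Dele1 rose by 0.36 ± 0.0612. In the endoplasmic reticulum list, 15 of 26 genes rose and 4 fell, with a median of 0.237 that read 0.239 corrected and -0.025 under totals alone. Calr, a calcium-binding chaperone, rose by 0.55 ± 0.0675 and Herpud1, a degradation factor, by 0.63 ± 0.0774, whereas Xbp1, the factor spliced by IRE1, changed by -0.60 ± 0.0873. Cytosolic chaperones gave 15 rises and 1 fall among 19 (median 0.364, 0.363 corrected), with Hspa8 up by 0.61 ± 0.0755.

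Of 36 lysosomal genes, 18 rose and 3 fell (median 0.189, 0.237 corrected, -0.074 under totals alone). Npc2, the sterol carrier of the lysosome, rose by 0.64 ± 0.0846 and Lamp1, a membrane glycoprotein, by 0.48 ± 0.0604. Core autophagy genes were divided, with 10 of 27 higher and 9 lower (37.0% and 33.3%, beside 24.5% and 24.9% of all genes). Their median was -0.042, or 0.090 corrected. The small ATG8 genes Gabarap (0.71 ± 0.0855) and Map1lc3b (0.51 ± 0.0786) rose, and the initiating kinase Ulk1 (-0.50 ± 0.0775) and the lipid carrier Atg2b (-0.88 ± 0.0906) fell. Sqstm1, the cargo receptor p62, rose by 0.45 ± 0.0651.

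Cell death genes did not move as one. Among 10 pro-death BCL2 family genes 4 rose and 2 fell, or 5 and 4 after correction (median 0.141, -0.023 corrected, -0.121 under totals alone). Bmf, a BH3-only protein gene tied to the cytoskeleton and loss of attachment, stood at 10.5, 11.6 and 12.2 CPM in wild type and at 3.85, 2.92 and 3.86 CPM in V560F. Its log2 change of -1.69 ± 0.131 (edgeR adjusted p = 9.89e-09) was among the 15 largest falls of genes at a mean of 1 FPKM or more whose FPKM did not overlap. Bid, which carries death receptor signals to mitochondria, changed by -0.66 ± 0.116. Bbc3, the p53 target PUMA, went from 18.1, 19.5 and 19.8 CPM to 26.3, 33.8 and 27.96 CPM, a rise of 0.62 ± 0.0997, and the pore-forming Bak1 rose by 0.46 ± 0.0979. Bax had a log2 difference of 0.01 and after correction was called lower, at -0.29 (edgeR adjusted p = 0.00479). On the survival side Bcl2 changed by -0.65 ± 0.142 and Mcl1 rose by 0.33 ± 0.0639. Of 23 cytochrome c, apoptosome and caspase genes 5 rose and 5 fell, 21.7% each and so near the shares of all genes. After correction 7 rose and 2 fell (median -0.061, -0.126 corrected). Casp2 (0.52 ± 0.078) was among the rises and the adaptor Tradd (-0.70 ± 0.201) among the falls. Of 18 p53 and growth arrest genes 6 rose and 4 fell, 33.3% and 22.2% (median -0.061, 0.044 corrected). Of these, Gadd45a (0.76 ± 0.106), Gadd45g (0.94 ± 0.161) and Cdkn1a (0.45 ± 0.0941), the last an inhibitor of cyclin-dependent kinases, rose. Rrm2b, a ribonucleotide reductase subunit (-0.51 ± 0.123), and Sesn1, a stress-induced inhibitor of mTORC1 signalling (-0.28 ± 0.0673), fell.

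Proliferation genes rose alongside. DNA replication genes gave 28 rises and no fall among 43 (median 0.352, 0.337 corrected), and G2 and mitosis genes 32 rises and 1 fall among 41 (median 0.361, 0.356 corrected). Mcm3, part of the replicative helicase, went from 47.13, 45.01 and 47.06 CPM to 80.5, 75.2 and 74.9 CPM, a log2 fold change of 0.73 ± 0.0728 (edgeR adjusted p = 1.59e-07). Top2a, which untangles chromosomes, rose by 0.69 ± 0.0672 and Ccna2, cyclin A, by 0.62 ± 0.058, and the fall was Ccnf, cyclin F (-1.06 ± 0.145).

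Of the 7 genes tested in the list of replication-dependent histones and Slbp, 4 rose and none fell, beside 24.5% and 24.9% of all genes. After correction 3 rose and none fell, beside 29.1% and 16.5% (median 0.861, 0.494 corrected). The genes called higher include Slbp, which is not itself a histone gene, and H2ac6. With 5 counts or fewer in each wild-type library, H2ac6 could pass the filter through the groups where it was high, so its rise supports nothing. H1f2, a linker histone, stood at 26.7, 25.3 and 30.8 CPM in wild type and 67.0, 95.8 and 72.8 CPM in V560F, which is 1.51 ± 0.111 in log2 units (edgeR adjusted p = 5.14e-09) and 1.09 corrected. Among the 15 largest rises chosen as for Bmf were 6 histone genes, of which 4 had 11 counts or fewer in each wild-type library and could pass the filter on low counts through the groups where they were high, so that number supports nothing. Of the 6, H4c9 had 46, 46 and 56 counts in wild type and 103, 165 and 73 in V560F, and H2ac6 had 2, 3 and 5 counts against 24, 30 and 14. Core histone genes are near-identical copies, so their reads are uncertain between members. Their transcripts normally end in a stem-loop without a poly(A) tail, and Slbp encodes the protein that binds it. Slbp rose by 0.62 ± 0.0698.

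All 82 cytosolic ribosomal protein genes tested were higher (median 0.707, 0.339 corrected), as were 15 of 16 snoRNA host genes (median 0.697, 0.241 corrected). The former have a median length of 792 bases. Translation factor genes, with a median length of 2503 bases, gave 31 rises and 1 fall among 42 (median 0.405, 0.335 corrected). Rplp0, a stalk protein of the large subunit, went from 2384, 2335 and 2690 CPM to 3691, 4649 and 3861 CPM (0.72 ± 0.0818), and the snoRNA host Gas5 rose by 0.96 ± 0.105. Glycolysis genes gave 18 rises and 4 falls among 27 (median 0.285, 0.326 corrected). Aldoa, an aldolase, rose by 0.67 ± 0.109, but Hk2, a hexokinase that binds mitochondria, went from 60.3, 59.8 and 57.3 CPM to 27.7, 26.1 and 29.8 CPM (-1.09 ± 0.0784, edgeR adjusted p = 4.46e-09). Hk1, another hexokinase gene of the list, rose by 0.33 (0.57 corrected) and was named after its value was seen.

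**Figure D4:**
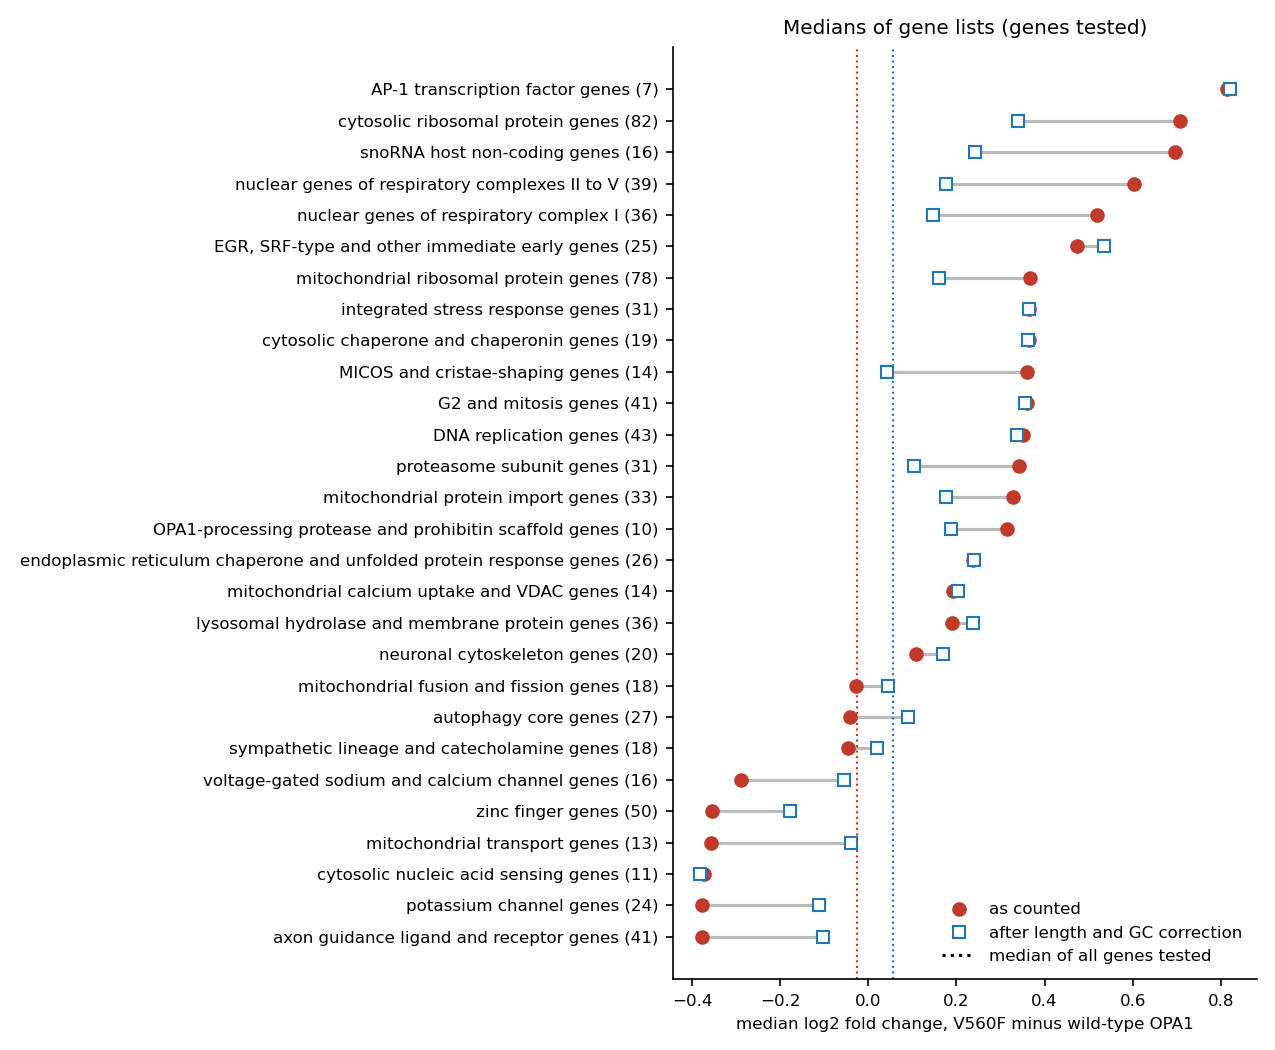
Median log2 fold change of V560F minus wild-type OPA1 over the tested genes of 28 lists (number of genes in brackets), as counted (red) and after length and GC correction (blue), with dotted lines at the medians of all genes, -0.025 and 0.056. The medians of the AP-1, stress response, mitosis and nucleic acid sensing lists hardly move, and those of the ribosomal, respiratory, MICOS and axon guidance lists move towards the median of all genes.

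As counted, many neuronal genes with long transcripts were lower. Axon guidance genes gave 19 falls and 1 rise among 41 (median -0.377, -0.104 corrected) and potassium channel genes 11 falls and 1 rise among 24 (median -0.377, -0.113 corrected). After correction these lists held 9 falls and 8 rises, and 5 falls and 3 rises. Sema6a, a transmembrane semaphorin, stood at 24.0, 23.6 and 20.9 CPM in wild type and 10.0, 5.28 and 8.11 CPM in V560F, a log2 change of -1.55 ± 0.15 (edgeR adjusted p = 1.13e-07) and -1.22 corrected. Unc5c, a netrin receptor, changed by -1.05 ± 0.121. Hcn4, a pacemaker channel, changed by -1.51 ± 0.148. Kcns3, a modifying potassium channel subunit, was higher by 1.36 ± 0.303, but 1 library set that value, with 7.81, 29.3 and 9.93 CPM in V560F and 6.04, 5.62 and 6.67 CPM in wild type, and without V560F replicate 2 the difference was 0.54 (edgeR adjusted p = 0.0125).

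Genes of the sympathetic lineage gave 2 rises and 5 falls among 18 (11.1% and 27.8%, beside 24.5% and 24.9% of all genes). Their median was -0.046, or 0.019 corrected. Gata2, a lineage transcription factor, went from 140.3, 126.0 and 131.8 CPM to 82.1, 102.3 and 82.9 CPM, without overlap. Its log2 change was -0.57 ± 0.0797 (edgeR adjusted p = 5.67e-06) and -0.41 corrected, and Hand2 changed by -0.33 ± 0.0677. Among neuronal cytoskeleton genes 10 of 20 rose and 4 fell (median 0.108, 0.170 corrected, -0.154 under totals alone), with the filament genes Prph (0.66 ± 0.0851) and Ina (-0.78 ± 0.0865) apart.

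Among genes at a mean of 1 FPKM or more whose FPKM did not overlap, the largest fall was that of Zfp455, a zinc finger gene at 4.91, 5.28 and 4.77 CPM in wild type and 1.27, 1.21 and 0.964 CPM in V560F (-2.11 ± 0.224, edgeR adjusted p = 3.23e-07). Of 50 zinc finger genes listed and tested, 23 fell and 3 rose (median -0.355, -0.177 corrected). Glcci1, a glucocorticoid-induced gene, went from 28.4, 32.5 and 21.7 CPM to 7.76, 6.22 and 6.24 CPM (-2.03 ± 0.158), with an antisense gene on its locus. Srrm4, the splicing factor of neuronal microexons, changed by -1.54 ± 0.16 on the log2 scale. These falls remained after correction, at -2.12, -1.80 and -1.25.

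V560F was set directly against V465F, with the same siRNA, dose and day. Of 13074 genes 1 (0.00765%) was called, and 2373 (18.2%) had an unadjusted p under 0.05 in the edgeR test. DESeq2 called 99 higher and 61 lower. The gene called was Slbp, at 50.9, 49.5 and 53.8 CPM in V465F and 66.8, 75.3 and 73.4 CPM in V560F, a log2 difference of 0.48 ± 0.0704 (95% interval 0.33 to 0.64, edgeR adjusted p = 0.00889). The count depended on single libraries, reaching 496 higher and 322 lower without V560F replicate 1 and none without V465F replicate 1 or 2 or V560F replicate 3. The median half-width of the 95% interval was 0.245, and for 83.5% of genes the interval lay within 1 log2 unit of 0. Bmf differed by 0.12 between the mutants (interval -0.22 to 0.47) and Fos by 0.27 (-0.02 to 0.55). A p above the threshold does not show that the mutants act alike.

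**Figure D5:**
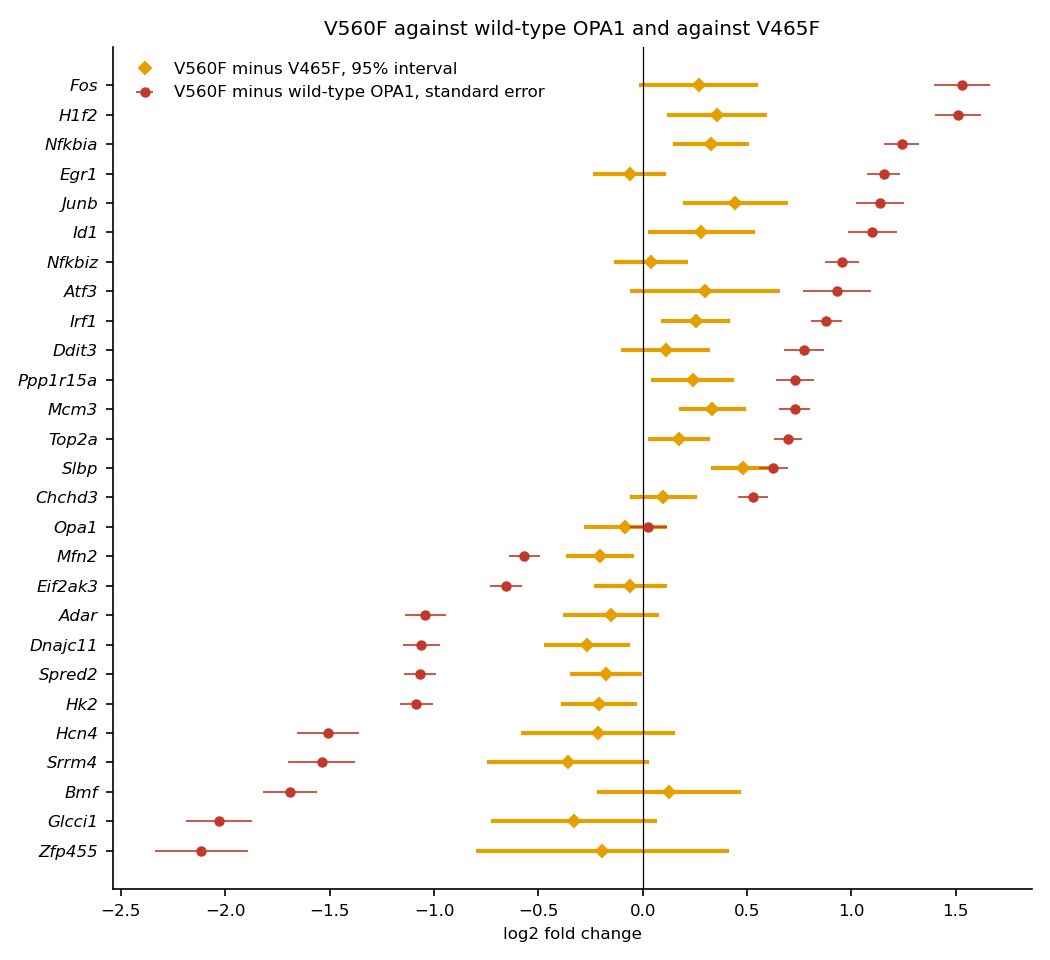
Log2 fold change of V560F minus wild-type OPA1 (red circles; bars, standard error) and V560F minus V465F (orange diamonds; bars, 95% interval) for 27 genes. The orange values lie between -0.4 and 0.5, and that of Slbp, at 0.48, is the one called.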

How the data were processed

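The members and gene lists were chosen with earlier results of these data known. The submitters' processing notes list HISAT2, HTSeq, fastp and R 3.2.0 and the build GRCm39; the strand setting is not given in the sources used here. The deposited table holds raw counts and FPKM made by the authors for 22507 genes, per the file headers. FPKM served for gene length, naming and markers. Counts were tested with edgeR 4.0.16 (quasi-likelihood, TMM, filterByExpr, 5 group means over 15 libraries, R 4.3.3) and p-values were adjusted by Benjamini-Hochberg over 13074 genes. CPM is counts scaled by TMM. The correction fits a spline on length and GC content (GENCODE M21, 95.7% of genes) per library. On simulated data with 12932 genes, 44 of 50 2-fold changes and 16 of 50 1.25-fold changes were recovered, and 8 of 144 calls were false. In that simulation few genes changed, genes varied independently, and there was no length or GC trend and no library standing apart. Its share of false calls therefore does not carry over to the calls reported here. The naming rule took Opa1, the 15 largest called rises and falls (mean of 1 FPKM or more, no overlap in FPKM), and up to 4 called members per direction of a list, or any member of lists up to 16 genes. Alternatives were DESeq2 1.42.0 and its size factors, totals alone, other filters, the block, thinning and libraries left out. Beside those marked in the text, Acvr2a, Atg2b, B2m, Bak1, Bid, Ccna2, Cebpb, Dele1, Eif2ak1, Eif2ak2, Gadd45a, Gas5, Hand2, Ina, Lamp1, Map1lc3b, Ppp1r15a, Rrm2b, Sqstm1, Srrm4, Tomm70a and Vdac2 overlap a gene on the opposite strand in GENCODE M21, and without a stated strand setting the reads of such pairs cannot be told apart.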

Additional observations from a re-analysis of the deposited data

Results flagged for a closer look

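Slbp, whose product binds the stem-loop of histone transcripts, differed between V560F and V465F by 0.483 on the log2 scale, which the edgeR test of the difference itself called (adjusted p = 0.00889). All 3 V560F libraries lay above all 3 V465F libraries. Over the alternatives the log2 difference ran from 0.418 to 0.532 and the adjusted p from 6.63e-07 to 0.134, and it was not called without V465F replicate 1 (0.129), V465F replicate 2 (0.134) or V560F replicate 3 (0.0575).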

How the results depend on the processing

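In V560F against wild-type OPA1, counts of genes higher and lower stayed within 1.5 times of 3204 and 3260 under the alternatives run, except that the length and GC correction gave 2161 lower and totals alone gave 1209 higher and 5939 lower. Leaving out 1 library gave 2689 to 3231 higher and 2692 to 3220 lower, and the replicate block gave 3184 and 3262. Deviations from the group mean correlated between same-numbered libraries at 0.080, -0.179 and -0.137. The highest value, 0.267, was that of V560F replicate 2 with wild-type replicate 3, the libraries that stood apart. With means of 3 libraries removed, these values cannot decide whether equal numbers share a batch. In V560F against V465F, 1 gene was higher and 0 lower. DESeq2 gave 99 and 61, the correction 38 and 20, no filter 337 and 243, the replicate block 2 and 1, and leaving out 1 library 0 to 496 and 0 to 322. The difference of Opa1 turned to -0.064 with a filter of 5 FPKM, -0.229 under totals alone, -0.060 without V560F replicate 1 and -0.015 without wild-type replicate 1, and leaving out 1 library gave -0.060 to 0.129. Of 111 genes named in the text by the naming rule (Opa1 and 110 called), 87 could be tested under all 19 alternatives. Of these, 77 kept direction and call in each. The 5 FPKM filter left 92 of the 111, and 106 remained without the 50 most abundant genes. Over the alternatives in which each was tested, 99 of the 111 kept direction and call. Nfkb1, Fis1 and Afg3l2 lost the call after the correction, and Fis1, Rel, Tnfaip3, Spg7, Mcl1, Marchf5, Dele1, Cdkn1a and Bak1 under totals alone. Rel also lost it without V560F replicate 3. Nupr1, named outside the rule and so not among the 111, was called higher as counted and lower after the correction. The cause was not tested. Genes at a few CPM are limited by depth.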
